A study of Mus musculus with 20 samples.

Results

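The alpha-arrestin genes Arrdc1, Arrdc2, Arrdc3, Arrdc4 and Txnip were followed in the hippocampus of mice that could or could not make the short forms of the glucocorticoid receptor. They were taken by gene symbol from a list of the family made with earlier results of these data known, and are 5 of the 57126 genes counted. All 5 passed the filter on low counts, as did 18648 genes in all. Poly(A) RNA was read in 20 libraries, 5 in each of 4 groups, and every mouse was a male C57BL/6 animal adrenalectomized at about 2.5 months of age. The groups were homozygous GRA knockin mice given dexamethasone (Dex), GRA knockin mice given phosphate-buffered saline (PBS), wild-type mice given Dex and wild-type mice given PBS. Dex, a synthetic glucocorticoid, was injected at 1 mg per kg 2 weeks after surgery, and the hippocampus was taken 6 h later. In the knockin allele the start codons of 7 shorter receptor forms in exon 2 of Nr3c1 are mutated in the germline. Of these forms, the knockin mice are left with full-length GRA. Removal of the adrenals, which all groups share, means that the PBS mice lack their main source of glucocorticoid and are not intact controls.

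Alpha-arrestins are adaptor proteins that share the arrestin fold. Short PPxY motifs in their tails recruit ubiquitin ligases of the NEDD4 family to membrane proteins, which are then internalized or sorted. Txnip is the member known for binding thioredoxin, the cell's main disulfide reductant, and for reducing glucose uptake by removing glucose transporters from the cell surface. Arrdc4 is its close relative, and both genes are known to be switched on by the glucose-sensing factors MondoA and Mlx. Arrdc3 is known in mice for limiting energy expenditure. Arrdc1 is known, from human cells, for driving the budding of small vesicles from the plasma membrane, and Arrdc2 is the least described of the 5.

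Libraries held 11493014 to 48267708 read pairs assigned to genes. All 40 pairs of libraries within groups differed beyond counting noise, so no library was a duplicate of another in its group. Pairs from different groups were not compared in this way. Nr3c1 was at 112 ± 8.69 CPM (counts scaled to a common library size after TMM normalization) in knockin Dex and 163 ± 24.1 CPM in knockin PBS libraries (SD, n = 5 each). It was at 98.6 ± 8.27 CPM in wild-type Dex and 136 ± 21.8 CPM in wild-type PBS libraries. With Dex, Nr3c1 was called lower in knockin mice (log2 fold change -0.55, edgeR adjusted p = 0.00227) and in wild-type mice (-0.46, adjusted p = 0.0112). Over all genes 4.71% were called lower in knockin and 3.94% in wild-type mice. Nr3c1 was not called between genotypes, and such gene-level counts do not read out the mutated codons. Levels and sums of cell type markers, here and below, are instead CPM of the library total, without TMM. Neuronal markers (6 genes) summed to 8683 to 10320 CPM and astrocyte markers (4 genes) to 5129 to 5676 CPM across all libraries. Prox1, a transcription factor of dentate granule cells, was at 136 to 178 CPM and Wfs1, a marker of CA1 pyramidal cells, at 124 to 203 CPM in every library. Summed markers of microglia (4 genes) were lower in the Dex groups without overlap, at 196 to 221 CPM in knockin Dex against 237 to 274 CPM in knockin PBS, and at 204 to 220 CPM in wild-type Dex against 241 to 290 CPM in wild-type PBS. Of these markers Cx3cr1 and P2ry12 were called lower in both genotypes, Csf1r in neither, and Tmem119 was called higher in the average over genotypes (0.18, edgeR adjusted p = 0.0323). Among the astrocyte markers, whose sum is mostly Slc1a2, Aldh1l1 was called higher with Dex (0.59 in knockin and 0.54 in wild-type mice, log2) and Aqp4 lower (-0.42 and -0.40). Choroid plexus markers (5 genes) stood out at 1378 CPM in knockin Dex replicate 2 and 1771 CPM in wild-type PBS replicate 4, against at most 595 CPM elsewhere. Liver markers (5 genes) stood out at 173 and 99.3 CPM in wild-type PBS replicates 1 and 2, against at most 41.4 CPM elsewhere. In whole tissue, fewer cells of a type and less RNA per cell cannot be told apart.

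Per kilobase of exon, Arrdc3 had the highest mean level of the 5 genes in every group, at 16.9 ± 2.72 FPKM (CPM per kilobase) in knockin Dex, 13.7 ± 2.49 in knockin PBS, 15.0 ± 1.65 in wild-type Dex and 12.2 ± 0.957 in wild-type PBS libraries (SD, n = 5 each). As computed, it was above Txnip in each library, although the ranges of the pair overlapped in both Dex groups. Of the 2827 exon bases of Txnip, 606 are shared with the gene Gm15441, and read pairs there were left out. Txnip levels per kilobase are thus understated, and its place beside Arrdc3 and Arrdc2 under Dex is not settled. The sums and shares below carry the same limit. In PBS libraries Txnip came next, at a mean of 7.34 FPKM in knockin (5.31 to 8.66) and 7.02 FPKM in wild-type mice (5.94 to 7.64). These values did not overlap Arrdc3 above or Arrdc2 below, but the pairs left out make the gap to Arrdc3 look wider than it is. Arrdc2, Arrdc1 and Arrdc4 formed a low group under PBS, at means of 2.42 to 3.11 FPKM in knockin and 2.54 to 2.96 FPKM in wild-type mice, and neighbours in that group overlapped. The order changed under Dex through Arrdc2. Its level reached 11.5 ± 2.80 FPKM in knockin Dex and 12.0 ± 2.79 FPKM in wild-type Dex libraries. There it overlapped Txnip, which was at 12.3 ± 3.22 FPKM in knockin Dex and 12.1 ± 1.04 FPKM in wild-type Dex libraries. Arrdc4 and Arrdc1 remained the lowest pair in both Dex groups and overlapped each other. The 5 genes summed to 46.5 ± 8.79 FPKM in knockin Dex against 29.2 ± 3.77 FPKM in knockin PBS, and to 44.6 ± 4.88 FPKM in wild-type Dex against 27.7 ± 1.70 FPKM in wild-type PBS. Arrdc2 made up 24.7% of that sum in knockin Dex against 10.7% in knockin PBS, and 26.7% in wild-type Dex against 10.7% in wild-type PBS.

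**Figure D1:**
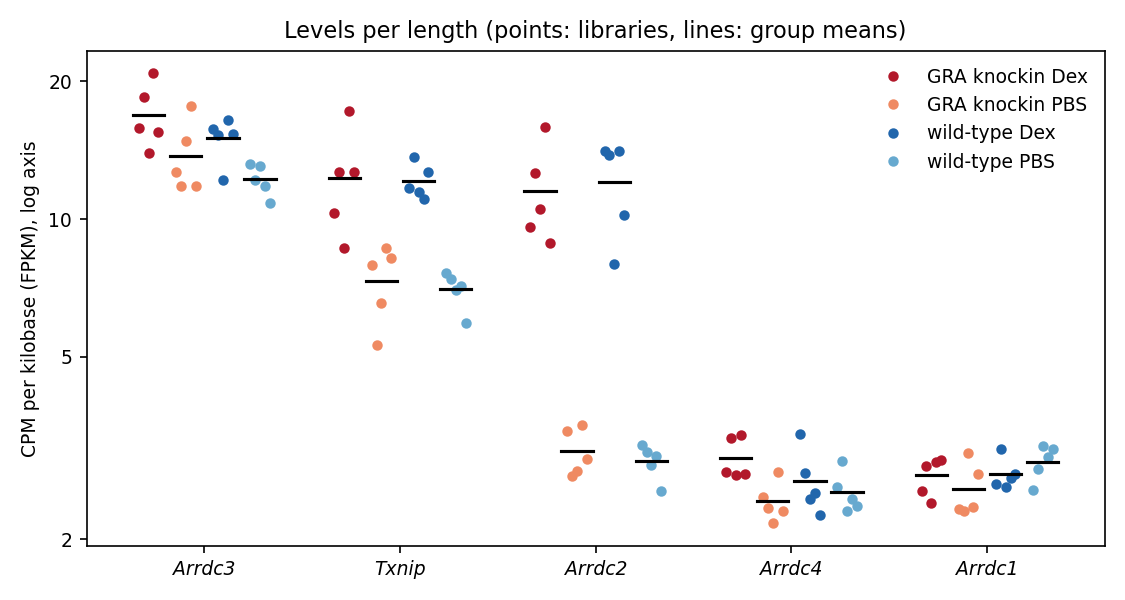
Level per kilobase (FPKM, log axis) of the 5 genes in each of 20 libraries, with group means as lines. Arrdc3 is the highest in every group mean, and Arrdc2 lies with Arrdc4 and Arrdc1 near 3 FPKM in PBS libraries but with Txnip near 12 FPKM in Dex libraries. Txnip is understated, because read pairs over exon bases shared with Gm15441 were left out.

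The first question was which of the 5 genes respond to Dex in mice that make GRA alone and in mice that make every form. In knockin mice 2 of 5 rose, Arrdc2 and Txnip, and none fell, against 5.28% of all genes tested called higher and 4.71% called lower. In wild-type mice 2 of 5 also rose, again Arrdc2 and Txnip, and none fell, against 5.27% called higher and 3.94% called lower. The median log2 fold change of the 5 genes was 0.30 in knockin and 0.29 in wild-type mice, against 0.00 in both for all genes tested. A gene was called where the quasi-likelihood test of edgeR, adjusted over all genes, gave a p below 0.05. Without knockin PBS replicate 4 the knockin count was 4 of 5. In the same comparisons summed endothelial markers (4 genes) were at 137 to 159 CPM in knockin Dex against 158 to 179 CPM in knockin PBS, and at 136 to 174 CPM in wild-type Dex against 164 to 180 CPM in wild-type PBS libraries. Summed mural markers (4 genes) were at 173 to 208 CPM in knockin Dex against 187 to 243 CPM in knockin PBS, and at 199 to 218 CPM in wild-type Dex against 221 to 252 CPM in wild-type PBS libraries. The part of these cell types and of microglia in the responses below was not tested.

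Arrdc2 (ENSMUSG00000002910.12, mm39 chromosome 8, 71287773 to 71292364, minus strand) gave the strongest response. Replicates 1 to 5 had 22.7, 29.7, 24.8, 37.4 and 20.9 CPM in knockin Dex and 8.12, 6.46, 6.63, 8.37 and 7.05 CPM in knockin PBS libraries. They had 33.1, 32.5, 18.8, 33.1 and 24.1 CPM in wild-type Dex and 7.55, 7.30, 6.83, 7.16 and 5.99 CPM in wild-type PBS libraries. No Dex library came near a PBS library: the lowest Dex value was 2.50 times the highest PBS value in knockin and 2.49 times in wild-type mice. All Dex libraries were above all PBS libraries for 4.65% of genes tested in knockin and 4.54% in wild-type mice. The log2 fold change was 1.87 in knockin mice (SE 0.18, edgeR adjusted p = 1.47e-06) and 2.02 in wild-type mice (SE 0.19, adjusted p = 7.13e-07), that is 3.66-fold and 4.05-fold. By size of rise Arrdc2 ranked 55 of 18648 genes in knockin and 48 in wild-type mice. Spread between mice was wider with Dex, with a coefficient of variation of 24.4% in knockin Dex against 11.85% in knockin PBS, and 23.2% in wild-type Dex against 8.64% in wild-type PBS libraries.

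Txnip (ENSMUSG00000038393.15, mm39 chromosome 3, 96465273 to 96469199, plus strand) also rose in both genotypes, by less. Replicates 1 to 5 had 29.2, 35.8, 24.5, 48.6 and 35.9 CPM in knockin Dex and 22.4, 15.0, 18.6, 24.5 and 23.3 CPM in knockin PBS libraries. They had 33.1, 38.5, 32.3, 31.3 and 35.9 CPM in wild-type Dex and 21.6, 20.9, 19.8, 20.2 and 16.8 CPM in wild-type PBS libraries. The wild-type groups were apart, with the lowest Dex value 1.45 times the highest PBS value. The knockin groups met at a single point, knockin Dex replicate 3 and knockin PBS replicate 4, both at 24.47 CPM. The log2 fold change was 0.75 in knockin mice (SE 0.16, edgeR adjusted p = 0.00384) and 0.79 in wild-type mice (SE 0.16, adjusted p = 0.00303), or 1.68-fold and 1.73-fold. In a fit to the 10 knockin libraries alone the knockin value was 0.74 with an adjusted p of 0.059, which does not pass. The gene Gm15441 lies on the other strand and shares 606 of the 2827 exon bases of Txnip. It took 33 read pairs over all libraries against 12861 for Txnip, and the counting did not use strand, so pairs from the shared bases cannot be assigned to either.

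**Figure D2:**
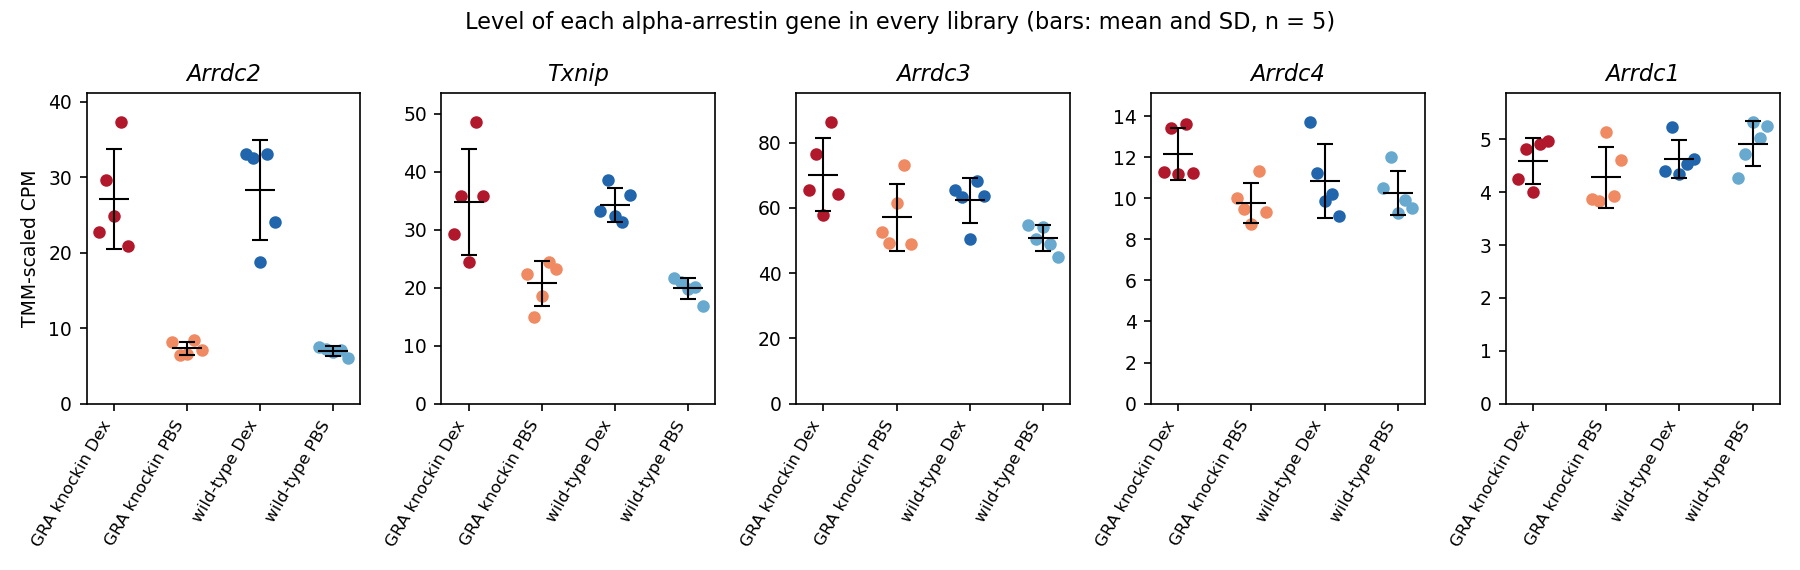
TMM-scaled CPM of each gene in all 20 libraries, with mean and SD of each group of 5 (axes start at 0). For Arrdc2 every Dex library lies above every PBS library, for Txnip this holds in wild-type mice, and for Arrdc3, Arrdc4 and Arrdc1 the groups overlap.

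The promoter windows of these genes are shown because Arrdc2 and Txnip moved together under a ligand whose receptor binds DNA. They run from 250 bases before to 50 bases after the start site in RefSeq (GRCm38.p6, a build older than that of the counts), and all 5 genes matched. Capitals mark letters of 5 of 6 motifs searched on both strands. These were the glucocorticoid response element (AGAACA and TGTTCT with 3 bases between), its core ACANNNTGT, the carbohydrate response element (2 copies of CACGNG with 5 bases between), the E-box CACGTG and the FOXO motif GTAAACA. The full response element stood in 0.00913% of 32851 promoter windows, its core in 6.85%, the carbohydrate element in 0.0487%, the E-box in 7.15% and the FOXO motif in 3.65%. The full glucocorticoid element contains its own core. Arrdc2 lies at chr8:70839671-70839970 on the minus strand, Txnip at chr3:96557707-96558006 on the plus strand and Arrdc4 at chr7:68749189-68749488 on the minus strand.
Arrdc2: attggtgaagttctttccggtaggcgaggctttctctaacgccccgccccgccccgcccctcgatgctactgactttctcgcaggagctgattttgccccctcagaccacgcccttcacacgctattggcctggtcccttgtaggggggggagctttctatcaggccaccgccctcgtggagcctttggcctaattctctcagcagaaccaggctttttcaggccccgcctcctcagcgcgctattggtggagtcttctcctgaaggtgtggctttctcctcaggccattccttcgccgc
Txnip: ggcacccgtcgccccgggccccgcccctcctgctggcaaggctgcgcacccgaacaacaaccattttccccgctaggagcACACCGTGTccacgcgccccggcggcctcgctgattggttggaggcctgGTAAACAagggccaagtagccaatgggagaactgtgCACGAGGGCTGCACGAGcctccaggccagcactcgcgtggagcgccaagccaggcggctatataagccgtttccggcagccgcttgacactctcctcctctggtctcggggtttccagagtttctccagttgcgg
Arrdc4: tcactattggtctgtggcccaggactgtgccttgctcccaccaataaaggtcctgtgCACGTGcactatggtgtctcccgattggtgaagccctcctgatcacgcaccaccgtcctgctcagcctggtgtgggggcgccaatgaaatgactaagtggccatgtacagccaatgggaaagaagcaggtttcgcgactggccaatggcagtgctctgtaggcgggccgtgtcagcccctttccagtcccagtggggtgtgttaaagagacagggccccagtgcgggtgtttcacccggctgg
The Txnip window held the carbohydrate element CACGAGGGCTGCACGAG, which began 85 bases before the start site. It also held ACACCGTGT, 170 bases before the start, and the FOXO letters, 121 bases before it. The Arrdc4 window held an E-box that began 193 bases before the start and none of the other motifs. The Arrdc2 window, that of the gene with the largest rise, held none of these 5 motifs, and neither did the windows of Arrdc1 and Arrdc3. The motif left in lower case, CCAAT, stood in 37.4% of windows, with 3 matches in Arrdc2, 6 in Arrdc4, 2 in Txnip, 0 in Arrdc1 and at most 1 in each Arrdc3 window. These are matches of letters in a short window and show nothing of what bound there or farther away.

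Arrdc3 (ENSMUSG00000074794.11, mm39 chromosome 13, 81031529 to 81044161, plus strand) had Dex means above PBS in both genotypes without a call in either. Replicates 1 to 5 had 65.6, 76.6, 57.9, 86.4 and 64.4 CPM in knockin Dex and 52.6, 49.1, 61.5, 73.2 and 48.9 CPM in knockin PBS libraries. They had 65.4, 63.3, 50.5, 68.3 and 63.7 CPM in wild-type Dex and 54.7, 50.5, 54.2, 49.0 and 45.1 CPM in wild-type PBS libraries. The groups overlapped in both genotypes, through PBS replicates 3 and 4 in knockin mice and Dex replicate 3 in wild-type mice. The log2 fold change was 0.29 in knockin mice (95% interval 0.03 to 0.55, edgeR adjusted p = 0.168) and 0.29 in wild-type mice (0.03 to 0.55, adjusted p = 0.196). Averaged over both genotypes it was 0.29 (SE 0.09, adjusted p = 0.0268), a 22.4% rise. The averaged response called 3 of the 5 genes higher, Arrdc2, Txnip and Arrdc3, and none lower, against 9.79% of all genes called higher and 8.41% called lower. For Arrdc3 the averaged call did not survive leaving out PBS replicate 5 of the wild-type mice (adjusted p = 0.0522), knockin PBS replicate 1 (0.0501) or knockin PBS replicate 2 (0.0514). It was also lost without the libraries high in choroid plexus transcripts (0.0748) and with no filter on low counts (0.0568). Without knockin PBS replicate 4, the library with the highest PBS value, Arrdc3 passed in knockin mice at 0.40 (adjusted p = 0.0302). In wild-type Dex replicate 3, where Arrdc3 was lowest of its group, the oligodendrocyte genes Mbp, Mog and Mag summed to 2008 CPM, against 2534 to 3450 CPM in the other 19 libraries, and their part in the result was not tested.

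Arrdc4 (ENSMUSG00000042659.16, mm39 chromosome 7, 68386743 to 68398989, minus strand) stood at the edge of the test in knockin mice. Replicates 1 to 5 had 11.3, 13.4, 11.2, 13.6 and 11.2 CPM in knockin Dex and 10.0, 9.46, 8.76, 11.3 and 9.32 CPM in knockin PBS libraries. They had 13.7, 11.2, 9.87, 10.2 and 9.14 CPM in wild-type Dex and 10.5, 12.0, 9.31, 9.90 and 9.55 CPM in wild-type PBS libraries. In knockin mice the groups overlapped through PBS replicate 4 alone, and in wild-type mice they were mixed. The log2 fold change was 0.30 in knockin mice (95% interval 0.10 to 0.51, edgeR adjusted p = 0.0501) and 0.09 in wild-type mice (-0.12 to 0.29, adjusted p = 0.712). In wild-type mice even the sign rested on Dex replicate 1, without which the value was -0.02. In knockin mice 9 of 19 alternatives brought the adjusted p below 0.05, among them the removal of PBS replicate 4 (0.37, adjusted p = 0.0208), Dex replicate 1 (0.34, 0.0458), Dex replicate 3 (0.33) or Dex replicate 5 (0.33, 0.0475). Averaged over genotypes Arrdc4 was at 0.20 (SE 0.07, edgeR adjusted p = 0.0545), and 10 of 28 alternatives brought that below 0.05.

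Arrdc1 (ENSMUSG00000026972.16, mm39 chromosome 2, 24815364 to 24825264, minus strand) showed no response that passed the test. It ranged over 4.00 to 4.97 CPM in knockin Dex and 3.83 to 5.15 CPM in knockin PBS libraries, and over 4.34 to 5.24 CPM in wild-type Dex and 4.27 to 5.34 CPM in wild-type PBS libraries. All 4 groups overlapped. The log2 fold change was 0.11 in knockin mice (95% interval -0.10 to 0.33, edgeR adjusted p = 0.598) and -0.10 in wild-type mice (-0.31 to 0.11, adjusted p = 0.658). It was the least deeply counted of the 5, with 53 to 203 read pairs per library, so counting error alone is 13.7% at the lowest count.

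**Figure D3:**
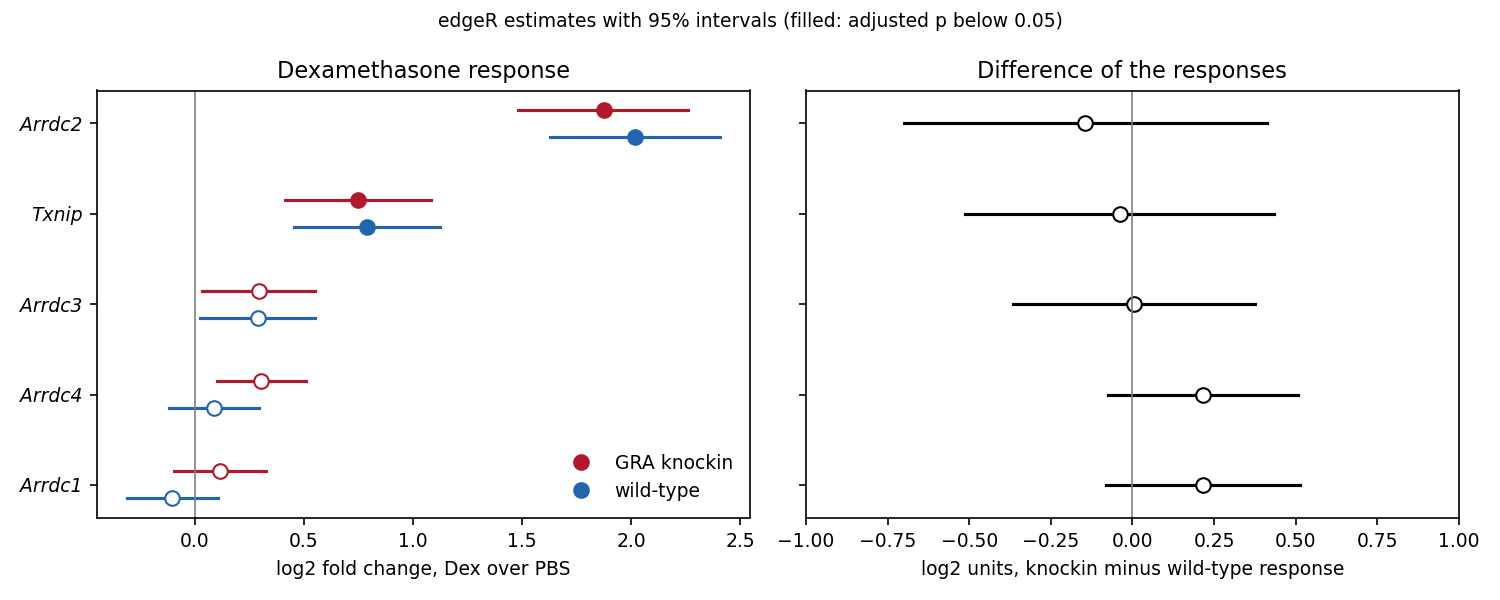
Log2 fold change of Dex over PBS in each genotype (left) and the difference of those responses, knockin minus wild-type (right), each with its 95% interval and filled where the adjusted p is below 0.05. Arrdc2 and Txnip are filled in both genotypes, and every interval of the difference includes 0.

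The second question was whether the loss of the short receptor forms changed these genes or their response. No member was called between genotypes under Dex or under PBS, and no gene of the 18648 was called in either comparison or for the difference of responses (0% for each), and DESeq2 and limma-voom also called 0 genes in all 3. At an unadjusted p below 0.05 edgeR had 828 genes under Dex, 673 under PBS and 527 for the difference, among which the sole member was Arrdc1 under PBS. Arrdc1 averaged 4.28 ± 0.582 CPM in knockin PBS and 4.92 ± 0.432 CPM in wild-type PBS libraries (SD, n = 5 each), a log2 fold change of -0.22 (95% interval -0.43 to -0.01, unadjusted p = 0.0406, adjusted p = 1.0). Under Dex it averaged 4.59 ± 0.437 CPM in knockin and 4.63 ± 0.361 CPM in wild-type libraries.

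For Arrdc2 the knockin response was 0.14 log2 units below the wild-type one (difference -0.14, 95% interval -0.70 to 0.41, edgeR adjusted p = 1.0). For Txnip the difference was -0.04 (-0.51 to 0.43) and for Arrdc3 0.00 (-0.37 to 0.37). For Arrdc4 it was 0.22 (-0.07 to 0.51) and for Arrdc1 0.22 (-0.08 to 0.51). These intervals leave room for differences of up to 0.70 log2 units for Arrdc2 and 0.51 for Txnip, which the 5 mice per group could not separate from 0. That Arrdc4 came nearer the threshold in knockin than in wild-type mice is therefore not a shown difference between genotypes. Under Dex the knockin level of Txnip was 0.03 log2 units from wild-type (95% interval -0.29 to 0.35), and that of Arrdc2 was -0.05 (-0.39 to 0.29).

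Genes of the pathway around the alpha-arrestins were looked up in 7 lists. Of 11 NEDD4-family ligases and adaptors, 1 rose in each genotype and none fell, against 5.28% of all genes called higher in knockin and 5.27% in wild-type mice. It was Nedd4l, the ligase known for removing the epithelial sodium channel, at a mean of 256.5 CPM in knockin Dex against 198.5 CPM in knockin PBS (log2 fold change 0.37, SE 0.08, edgeR adjusted p = 0.00473). In wild-type mice Nedd4l was at 252 CPM with Dex against 196 CPM with PBS (0.36, SE 0.08, adjusted p = 0.00661). All Dex libraries were above all PBS libraries in both genotypes, as for 4.65% of genes tested in knockin and 4.54% in wild-type mice. The median over the list was -0.01 log2 units in knockin and 0.00 in wild-type mice, against 0.00 in both for all genes. Averaged over both genotypes, Nedd4 was also called lower (-0.07), against 8.41% of all genes called lower, and the call was lost under 5 of 28 alternatives.

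Among 9 genes of glucose sensing and uptake, 2 rose in knockin and 3 in wild-type mice, and none fell, against the same 5.28% and 5.27% of all genes. Slc2a1, the glucose transporter whose surface level Txnip is known to lower, was at 181 CPM in knockin Dex against 76.0 CPM in knockin PBS (log2 fold change 1.25, SE 0.15, edgeR adjusted p = 1.9e-05). In wild-type mice it was at 179 CPM with Dex against 79.0 CPM with PBS (1.18, SE 0.15, adjusted p = 4.24e-05). Slc2a4, the insulin-responsive transporter, rose by 1.33 log2 units in knockin and 1.14 in wild-type mice at a low level, with 2.20 CPM in knockin Dex against 0.852 CPM in knockin PBS and 2.41 CPM in wild-type Dex against 1.099 CPM in wild-type PBS. Mlxip, which encodes MondoA, rose in wild-type mice (0.19, SE 0.05, adjusted p = 0.0184), a call lost without PBS replicate 3 (adjusted p = 0.0776), PBS replicate 4 (0.0549) or Dex replicate 4 (0.0532), and without the choroid-high libraries (0.0569). In knockin mice Mlxip was at 0.15 (adjusted p = 0.0586), and averaged over genotypes it was called at 0.17 (adjusted p = 0.00105), a call kept under all 28 alternatives run. RNA levels do not show how much transporter is at the cell surface.

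The thioredoxin system had 1 of 12 genes lower in each genotype and none higher, against 4.71% of all genes called lower in knockin and 3.94% in wild-type mice. It was Prdx1, a peroxidase that thioredoxin reduces, at 71.7 CPM in knockin Dex against 80.9 CPM in knockin PBS (log2 fold change -0.17, SE 0.04, edgeR adjusted p = 0.00373). In wild-type mice it was at 68.0 CPM with Dex against 82.4 CPM with PBS (-0.28, SE 0.04, adjusted p = 2.33e-05). Among 5 proteins described as cargo of the family, Itgb4, an integrin chain bound by ARRDC3 in human cells, fell by 0.44 on the log2 scale in knockin mice (adjusted p = 0.00472) and by 0.39 in wild-type mice (adjusted p = 0.0161). The wild-type call of Itgb4 was lost without Dex replicate 3 (adjusted p = 0.0583). Insr, the insulin receptor gene, rose by 0.14 in both genotypes (adjusted p = 0.0282 in knockin and 0.0378 in wild-type mice). Of the 5 cargo genes 1 was thus called lower and 1 higher in each genotype. Over all genes 5.28% were called higher in knockin and 5.27% in wild-type mice. Its calls were lost without any 1 of 6 libraries in knockin mice (PBS replicates 1, 2, 3 and 5, Dex replicates 1 and 2) and any 1 of 5 in wild-type mice (PBS replicates 3 and 5, Dex replicates 3, 4 and 5). The Insr call was also lost in knockin mice with only the libraries compared and without the choroid-high ones, and in wild-type mice with no filter on low counts. Averaged over genotypes Insr was called at 0.14 (adjusted p = 0.00105), a call kept under all 28 alternatives run.

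Of 6 inflammasome genes, to which Txnip has been linked, 5 were counted deeply enough to test. Of these 5, 1 was called lower in each genotype and 0 higher. Over all genes 4.71% were called lower in knockin and 3.94% in wild-type mice. Pycard, the adaptor ASC, fell in both genotypes, to 1.68 CPM in knockin Dex against 2.52 CPM in knockin PBS (log2 fold change -0.60, SE 0.16, edgeR adjusted p = 0.0124) and to 1.501 CPM in wild-type Dex against 2.69 CPM in wild-type PBS (-0.83, SE 0.16, adjusted p = 0.000893). The knockin call of Pycard was lost without PBS replicate 4 (-0.47, adjusted p = 0.0617). Of the microglial markers, 2 of 4 were called lower in each genotype, against the same 4.71% and 3.94% of all genes, and their part in this result was not tested. No gene was called in either genotype among 8 genes of ESCRT and vesicle budding, the machinery Arrdc1 recruits. The same held for 8 relatives that share the arrestin fold, 7 of them tested, with Arrdc5 at no more than 2 read pairs in any library. Over all genes 5.28% were called higher and 4.71% lower in knockin, and 5.27% and 3.94% in wild-type mice. At such shares a list this short can hold no call. Averaged over both genotypes, the retromer subunit gene Vps26b was called higher (0.07) and its relative Vps26c lower (-0.10). Over all genes 9.79% were called higher and 8.41% lower in that average. Both calls were lost under several alternatives (adjusted p up to 0.143 and 0.10).

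Across the 20 libraries Txnip and Arrdc2 varied together most closely of any 2 members, with a Pearson correlation of log2 CPM of 0.90. These libraries share the Dex and PBS groups. With group means removed it was 0.54. By that measure of mouse-to-mouse spread Arrdc2 went most with Arrdc3 (0.72) and Arrdc4 (0.69), while Arrdc1 stayed between -0.19 and 0.31 with the other 4. Over all 20 libraries the genes most like Arrdc2 among 12661 compared were Pnpla2, which encodes the lipase ATGL (0.99), the kinase gene Sgk1 (0.99) and the cell cycle inhibitor gene Cdkn1a (0.99). Those most like Txnip were Arhgap31 (0.94), Timp3 (0.94) and Selenop (0.93), which encode a GTPase regulator, a metalloproteinase inhibitor and a selenium carrier. Those most like Arrdc3 were Mobp (0.94) and Mal (0.93), which encode myelin proteins, and Aldh6a1 (0.86). Arrdc4 was most like Il1rap (0.84), Fads1 (0.84) and Card6 (0.83), and Arrdc1 most like Plk3 (0.72), Vwc2 (0.71) and Ankrd37 (0.70). Of these, Pnpla2, Sgk1 and Cdkn1a were called higher with Dex in both genotypes, as were Arhgap31, Timp3 and Selenop. Over all genes 5.28% were called higher in knockin and 5.27% in wild-type mice. Picked for following a called member over the same libraries, such genes tend to be called, so their calls are no separate support. Mobp and Mal were called in neither genotype, and Aldh6a1 was called higher in knockin mice alone (0.28, edgeR adjusted p = 0.0274). Averaged over genotypes Mobp (0.43, adjusted p = 0.0112) and Aldh6a1 (0.23, 0.00525) were called higher, against 9.79% of all genes, and Mal was not. After removal of group means the closest genes were Setdb2, Aff1 and Irgm1 for Arrdc2 (0.91 to 0.92) and Siae, Ldhb and Tbrg1 for Txnip (0.80 to 0.83). They were Oxsr1, Mal and Clic4 for Arrdc3 (0.89 to 0.93), Card6, Lonrf3 and Rhob for Arrdc4 (0.82 to 0.83), and Ctsa, Slc7a10 and Ankrd37 for Arrdc1 (0.76 to 0.79). All of these are descriptions over 20 libraries that share dissection and depth differences, and the highest of 12661 correlations is large by selection.

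**Figure D4:**
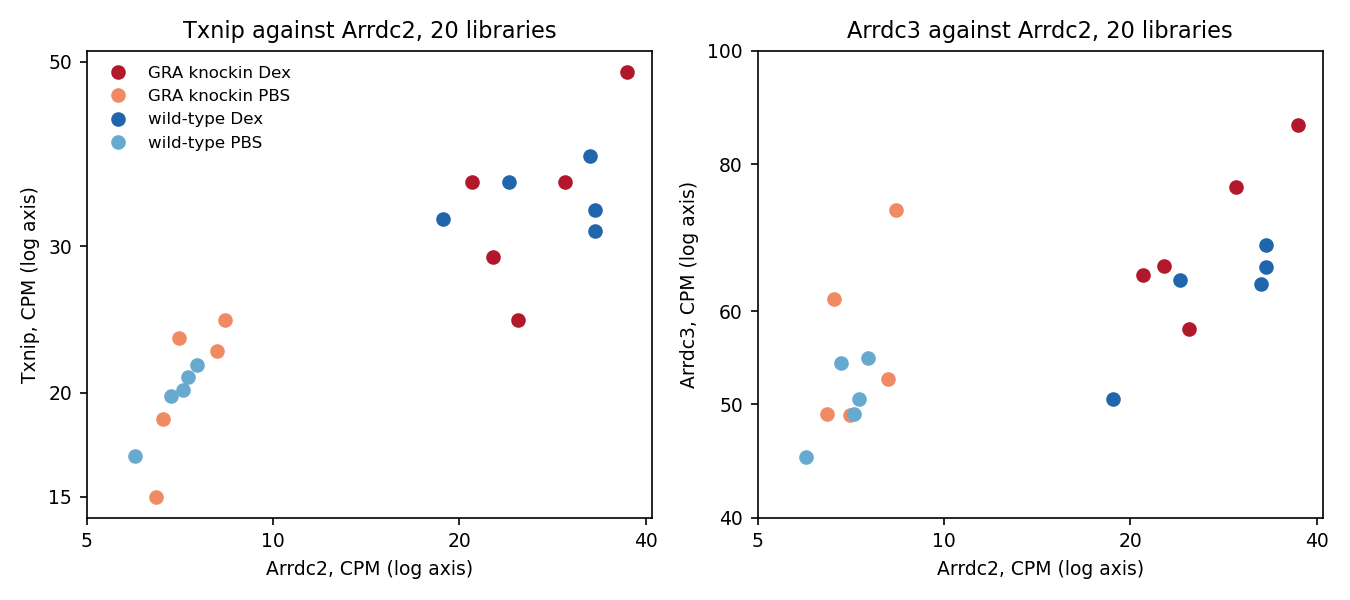
Txnip (left) and Arrdc3 (right) against Arrdc2 in 20 libraries, CPM on log axes, coloured by group. Dex libraries lie to the right of all PBS libraries, with Arrdc2 above 18 CPM, and knockin Dex replicate 4 is the highest library for all 3 genes.

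**Figure D5:**
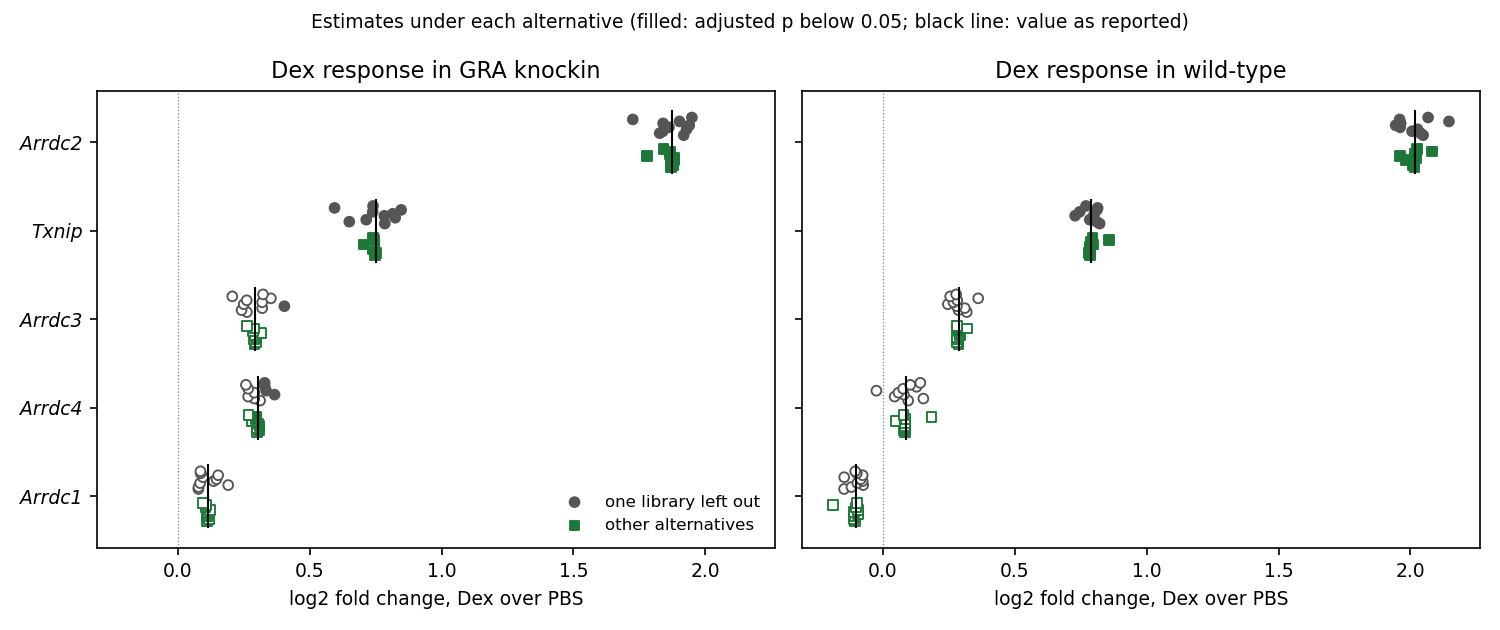
Log2 fold change of Dex over PBS for each gene with a single library left out (circles) and under the other alternatives (squares), filled where the adjusted p is below 0.05, with the reported value as a black line. Arrdc2 stays filled throughout, Txnip is filled but for 1 square at 0.74 in knockin mice that others partly hide, and Arrdc4 in knockin mice has both filled and open symbols.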

How the data were processed

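The values used were raw counts of read pairs per gene, deposited as 1 file per library. Per the file headers, the authors made them with featureCounts 2.0.6 on GENCODE M34 basic, counting read pairs with no option set for strand, for pairs that map to several places or for pairs that overlap several genes. STAR 2.5.1, mm39, Subread 1.5.1 and DESeq2 1.38.3 are named in the submitters' processing notes. Pairs that overlap exons of 2 genes were thus left out, which touches Txnip. The exon length in bases, also deposited, gave FPKM. Symbols came from a GRCm38 names table, by which 51884 of 57126 identifiers matched.

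Counts were analysed with edgeR 4.0.16 (filterByExpr with minimum count 10, TMM, robust quasi-likelihood fit, 1 term per group, all 20 libraries, 16 residual degrees of freedom). SEs and 95% intervals were taken from the log2 fold change and its F statistic. P-values were adjusted over 18648 genes by the Benjamini-Hochberg method. On simulated data for the wild-type Dex comparison (18648 genes), 56.1% of 66 changes of 0.5 log2 units and 91.0% of 67 changes of 1 unit were called. Far fewer genes were changed there than the 1717 called in the real comparison. The adjusted threshold was thus not the same, and recovery in the real data can differ. The alternatives were DESeq2 1.42.0, limma-voom 3.58.1, other scaling and filters, the compared libraries alone, a replicate block, and leaving out libraries. The labels call replicates biological, which is read as 1 mouse each; if they were not, the p-values cover the spread of these samples alone. The text names the 5 genes, Nr3c1, up to 4 called genes per list in each comparison and the 3 genes most like each member over 20 libraries. The 3 most alike without group means are named too. Arrdc5 was named after its values were seen. Some items are not reported here. The members and lists were chosen with earlier results of these data known.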

Additional observations from a re-analysis of the deposited data

Results flagged for a closer look

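Arrdc3 in wild-type Dex replicate 3 was at 50.5 CPM and lay far below the other 4 libraries of its group, whose values were 63.3 to 68.3 CPM. It was the only such value among the 20 combinations of gene and group examined, and chance gives about 1 in 20. Without that library the wild-type response of Arrdc3 was 0.36 (edgeR adjusted p = 0.0908). The same library had the lowest sum of the oligodendrocyte genes Mbp, Mog and Mag, 2008 CPM against 2773 to 2988 CPM in the other 4 of its group, and their part in the value was not tested. It also had the lowest Arrdc2 level of the wild-type Dex group, 18.8 CPM.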

How the results depend on the processing

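The calls of Arrdc2 held in both genotypes under every alternative run, and those of Txnip under every one but the fit to the knockin libraries alone (0.74, adjusted p = 0.059). Averaged over genotypes, Arrdc3 missed the threshold with no filter on low counts (0.29) and without the libraries high in choroid plexus transcripts (0.27). Averaged Arrdc4 passed with no filter (0.19), with the replicate block (0.20) and without the libraries high in liver transcripts (0.24), and also in 7 fits that left out 1 library. Arrdc4 in knockin mice passed with no filter (0.31), with the replicate block (0.31), by DESeq2 (0.30), with only the libraries compared (0.30) and without the liver-high libraries (0.30). Arrdc3 in wild-type mice passed with only the libraries compared (0.29). A separate fit of that kind, to the Dex libraries alone, called 1 gene in all between genotypes. Values near 0 changed sign: averaged Arrdc1 without the liver-high (-0.040) and choroid-high libraries (-0.00018), the Arrdc3 difference of responses without them (-0.032 and -0.017), Txnip between genotypes under Dex with the block (-0.0052) and by limma-voom (-0.039), and Arrdc4 between genotypes under PBS without the liver-high libraries (0.042). The causes were not tested.

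Leaving out single libraries gave these ranges. The averaged response was -0.017 to 0.045 for Arrdc1, 0.25 to 0.35 for Arrdc3 and 0.14 to 0.23 for Arrdc4. In knockin mice 2 to 4 members were called, with 0.21 to 0.40 for Arrdc3 and 0.26 to 0.37 for Arrdc4, and in wild-type mice Arrdc4 was -0.024 to 0.15. The difference of responses was -0.083 to 0.11 for Arrdc3 and -0.19 to 0.057 for Txnip. Knockin against wild-type under Dex gave -0.034 to 0.039 for Arrdc1, -0.20 to 0.026 for Arrdc2 and -0.13 to 0.12 for Txnip, and under PBS -0.12 to 0.0065 for Arrdc4 and -0.0085 to 0.16 for Txnip. Same-numbered deviations correlated at -0.108 to 0.249, over 0.1 in 5 of 30 pairs. The highest value, 0.249, was that of knockin Dex with knockin PBS at replicate 4. Differently numbered pairs were not set beside these, so whether replicate numbers pair the samples is not settled. For Nr3c1 and genes outside the family, the same alternatives were added after seeing the data. Low counts limit Arrdc1 most.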
